A study of Mus musculus with 2 samples.

Results

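The Vit/Fbn2/Thsd7b fibroblasts are 987 cells among 5265 fibroblasts and 22183 barcodes of the mouse right ventricle. They were chosen by their own counts. A fibroblast needed at least 500 unique molecular identifiers (UMIs, counted transcript molecules), under 2% of them from Ttn and Ryr2, at least 3 from Pdgfra, Dcn, Col1a2 and Abca8a together, and none from Msln and Upk3b. A member then needed at least 2 UMIs of Thsd7b, Vit, Fbn2, Kcnb2 and Ccbe1 together. That sum, called the score here, also had to exceed the UMIs of Pi16, Cd248, Gfpt2, Adgrd1 and Has2 and those of Smoc2, Kcnk2, Col15a1, Hs3st3a1 and Mme. The other fibroblasts were 598 Pi16/Cd248 fibroblasts and 1969 Smoc2/Col15a1 fibroblasts, chosen in the same way by their own 5 genes, and 1711 remaining fibroblasts.

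The study profiled right ventricle cells of C57/BL6J mice with floxed alleles of both lysine acetyltransferase genes (CBP flox/flox and p300 flox/flox), which were also Trap flox/flox. AAV9, a virus used to reach heart muscle, was injected on postnatal day 1, and hearts were taken on postnatal day 21. The 2 libraries carry the same labels and make up a single group, and there was no control library. Everything below compares classes of cells within these libraries. The labels do not give the cargo of the virus, any Cre driver, what the Trap allele is, or how many animals went into a library. Frozen tissue was digested with collagenase and CD45-positive cells were enriched with beads, so shares of cells are not shares of the tissue. Library 1 held 57982200 UMIs in 12736 barcodes and library 2 held 50199793 UMIs in 9447 barcodes. The members' summed counts were 817000 and 2838135 UMIs, with medians of 2262 and 3446 UMIs per cell against 2009 and 3276 in the other fibroblasts. The libraries shared 17 barcode sequences, and 5 members carried one of them. A doublet score from simulated mixtures marked 14.4% of members in library 1 and 13.5% in library 2, against 9.25% and 11.2% of the other fibroblasts.

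Cardiac fibroblasts build and remodel the matrix that holds the ventricle together, and after birth they sort into states with different matrix and signalling genes. The 5 genes of the score come from different parts of that biology. Fbn2 encodes fibrillin-2, a microfibril protein on which elastic fibres form and which is abundant in developing tissue. Vit encodes the matrix protein vitrin, Thsd7b a membrane protein with thrombospondin repeats, and Kcnb2 a voltage-gated potassium channel. Ccbe1 encodes a secreted protein that helps the protease ADAMTS3 to release active VEGF-C, the growth factor of lymphatic vessels.

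Members made up a near-equal share of the fibroblasts in both libraries. Library 1 had 291 members among 1524 fibroblasts, or 19.1% with 95% Clopper-Pearson bounds of 17.2% and 21.2%. Library 2 had 696 among 3741, or 18.6% with bounds of 17.4% and 19.9%. The mean share was 18.8% ± 0.347 (SD, n = 2). With every fibroblast thinned to 1000 UMIs, which left out 107 fibroblasts of library 1 and 54 of library 2, the shares were 13.8% in both libraries. The intervals cover counting error only.

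The values of the 5 score genes chose the members and are given as a description. Levels are CPM, a gene's UMIs scaled to the total UMIs of its class and library, and pairs of values are for library 1 and then library 2. Ccbe1 stood at 858 and 1146 CPM in members, against 190 and 231 CPM in the other fibroblasts. Fbn2 was at 568 and 529 CPM against 88.3 and 93.1 CPM, and Vit at 264 and 268 CPM against 56.0 and 49.8 CPM. Both genes were thus even between the libraries. Thsd7b was not, with 80.8 and 278 CPM in members against 8.57 and 14.0 CPM in the other fibroblasts. Kcnb2 was likewise uneven, with 61.2 and 235 CPM against 8.57 and 6.64 CPM.

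Most members did not carry the whole signature. Ccbe1 gave 46.8% and 46.7% of all score UMIs, and it was also detected in 26.8% and 32.5% of the other fibroblasts. Among members, Ccbe1 was detected in 72.9% and 75.4%, Fbn2 in 57.0% and 54.5%, Vit in 36.1% and 40.5%, Thsd7b in 14.4% and 28.7%, and Kcnb2 in 7.22% and 17.7%. A single gene of the 5 was detected in 33.0% of members of library 1 and 29.9% of library 2, and that gene was Ccbe1 in 17.9% and 14.1% of members. All 5 were detected in 1 member of library 1 and 5 members of library 2. In library 2, 34.96% of the members with Kcnb2 also had Ccbe1, against 75.4% of all members, while 83.0% of those with Thsd7b did. Because a member needs score UMIs from some gene, such shares are partly set by the rule. As a background, Ccbe1 was detected in 12.7% and 11.4% of 8280 and 2653 cells with at least 2% of UMIs from Ttn and Ryr2, whose median depths were 4974 and 7786 UMIs. In these cardiomyocyte-rich cells Fbn2 was detected in 8.27% and 12.9%, and Vit, Thsd7b and Kcnb2 in 0.918% to 4.49%.

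Each score gene was also read in cells chosen with the other 4. Thsd7b was then 3.59-fold higher than in the rest of library 1 and 7.61-fold higher in library 2, and Vit was 1.78-fold and 3.17-fold higher. Fbn2 was 1.59-fold and 2.92-fold higher and Ccbe1 1.38-fold and 1.99-fold higher. Kcnb2 was at 21.8 CPM against 19.2 CPM in library 1 (17 UMIs in the chosen cells) and at 111 against 38.4 CPM in library 2. Each of the 5 genes showed the larger fold in library 2.

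The start regions of Thsd7b and of Gpr39, a receptor gene outside the rule, are shown because both genes led the clusters richest in members. The RefSeq promoter table for GRCm38.p6 held 3 of 5 genes looked up (Thsd7b, Gpr39 and Il1rapl1, but not Vit or Kcnb2). The windows run from 250 to 11 bases before the annotated start, in the direction of the gene. Thsd7b lies at chr1:129273054-129273293 and Gpr39 at chr1:125676746-125676985, both on the plus strand. Capitals mark matches on either strand to CTTTGA (TCF/LEF), ACAAT (SOX), GGAATG (TEAD), TGACTCA (AP-1) or TATAAA.
Thsd7b: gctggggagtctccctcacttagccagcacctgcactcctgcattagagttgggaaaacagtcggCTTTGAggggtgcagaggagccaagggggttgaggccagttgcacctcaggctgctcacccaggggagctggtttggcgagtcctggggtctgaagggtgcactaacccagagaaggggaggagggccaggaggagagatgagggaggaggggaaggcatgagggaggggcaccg
Gpr39: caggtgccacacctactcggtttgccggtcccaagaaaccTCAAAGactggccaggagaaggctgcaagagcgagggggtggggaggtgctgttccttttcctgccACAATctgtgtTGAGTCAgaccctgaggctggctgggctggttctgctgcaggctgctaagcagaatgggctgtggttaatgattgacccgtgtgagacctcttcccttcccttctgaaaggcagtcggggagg
The Thsd7b window held 1 match, CTTTGA at base -185. The Gpr39 window held 3: the reverse complement of CTTTGA at -210, ACAAT at -144 and the reverse complement of TGACTCA at -133, with no overlap. Among 32851 windows of the same length, 13.5% held CTTTGA, 27.1% ACAAT and 4.35% TGACTCA on either strand, so a match in 1 window is common for the first and second. The Il1rapl1 window (chrX:88115959-88116198, minus strand) held none of the 5 motifs.

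Clustering each library's fibroblasts without the 23 genes of the rule did not gather the members into 1 cluster. In library 2, a cluster of 209 cells led by Thsd7b, Il1rapl1, Gpr39, Ctnna2 and Nkain2 was 78.9% members (165 cells, 95% interval 72.8% to 84.3%), but it held only 23.7% of all members. A second cluster of 226 cells, led by Piezo2, Kcnb2, Myoc, Gria4 and Igfbp3, was 50.4% members and held 16.4% of them. The score genes differed between these clusters: Thsd7b was at 762 CPM in the first and 155 CPM in the second, Fbn2 at 1048 and 255 CPM, and Kcnb2 at 78.2 and 326 CPM. Another of 34 cells led by Ptprt, Cntnap4 and Enpp2 was 41.2% members. In library 1 a single cluster stood out, with 250 cells led by Gpr39, Prr16, Ephb2, Cilp and Il1rapl1, of which 39.2% were members and which held 33.7% of all members. Leading genes were ranked over all genes, those of the rule included.

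**Figure D1:**
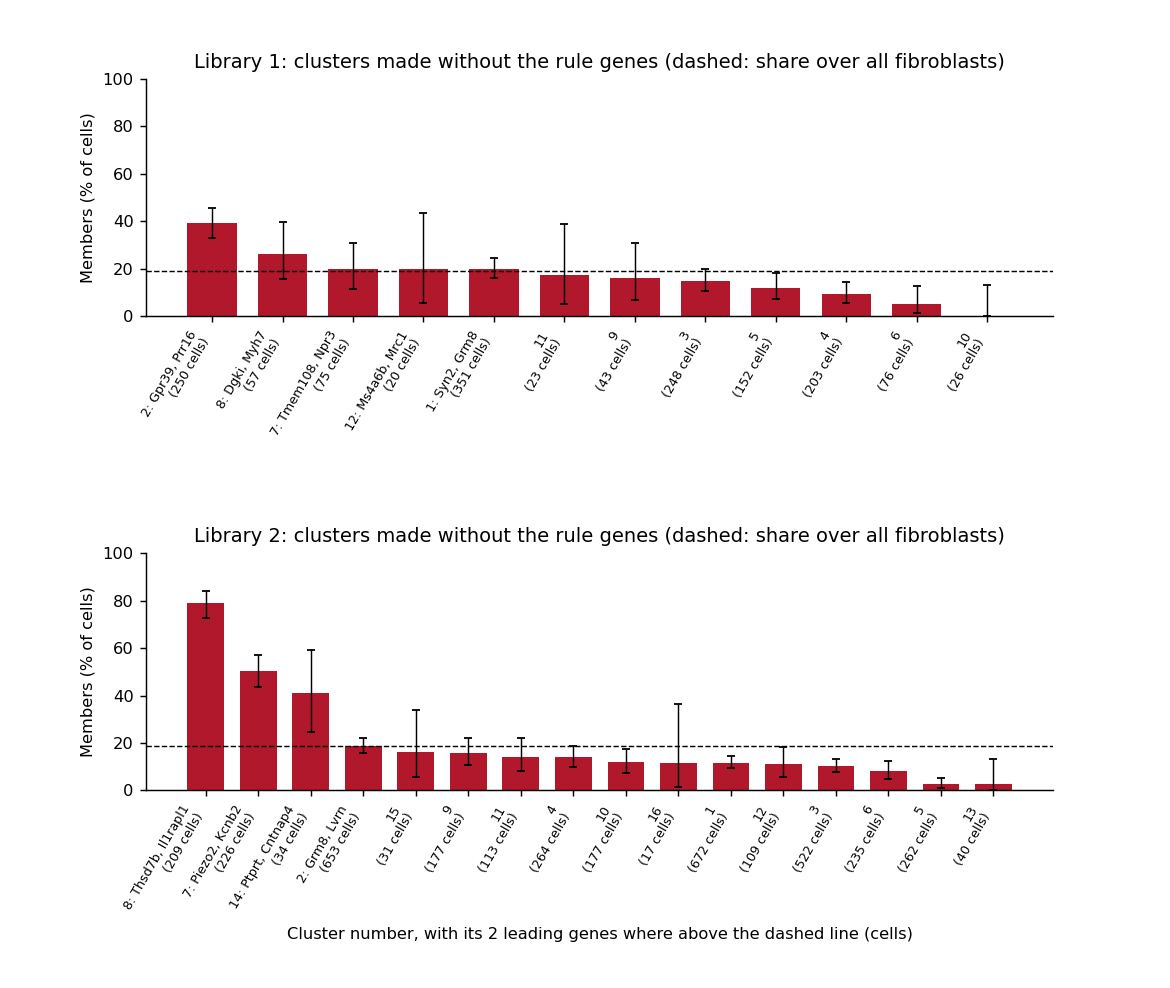
Share of members (y axis, % of cells) in each fibroblast cluster of library 1 (top) and library 2 (bottom), with 95% Clopper-Pearson intervals and the share over all fibroblasts as a dashed line; clusters above that line are labelled with their 2 leading genes. In library 2 the cluster led by Thsd7b and Il1rapl1 reaches 78.9%, and in library 1 the highest share is 39.2% in the cluster led by Gpr39 and Prr16.

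Members with a high score lay nearer to each other. Of the 15 nearest neighbours of a member, a mean of 28.5% in library 1 and 38.7% in library 2 were members, against 19.1% and 18.6% of all fibroblasts. For the members with a score of 5 or more the means were 34.3% and 44.0%. For the 57 members of each library with a score of 2, just inside the threshold, they were 24.0% and 19.7%.

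Genes outside the rule differed along the score. Gpr39 was at 20.4 and 14.9 CPM in members with a score of 2, at 32.9 and 23.2 CPM in the fibroblasts just outside (a score of 1, above both other scores, 54 and 91 cells), and at 129 and 194 CPM in members with 5 or more. Il1rapl1 was at 40.8 and 59.7 CPM inside, 32.9 and 46.4 CPM outside, and 258 and 591 CPM at 5 or more. At a score of 0, Gpr39 was at 14.1 and 16.7 CPM and Il1rapl1 at 51.9 and 51.6 CPM, near their level just inside the threshold. Nkain2, a membrane protein that binds the sodium pump, stood at 102 and 34.8 CPM just inside and at 419 and 750 CPM at 5 or more. Igfbp3, a secreted binder of insulin-like growth factors, was already at 435 and 149 CPM just inside the threshold in libraries 1 and 2, against 304 and 26.5 CPM just outside it and 101 and 53.2 CPM at a score of 0. In library 1 it was therefore also high outside the members. Other fibroblasts had a score of 2 or more that did not exceed both other scores (238 and 936 cells). In these, Gpr39 was at 33.3 and 44.5 CPM, Il1rapl1 at 76.8 and 122 CPM and Nkain2 at 204 and 138 CPM. All were above members with a score of 2, whereas Igfbp3 was below them (206 and 91.1 CPM). Median depth was 1755 and 3052 UMIs in members with a score of 2 and 2575 and 3677 UMIs at 5 or more.

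**Figure D2:**
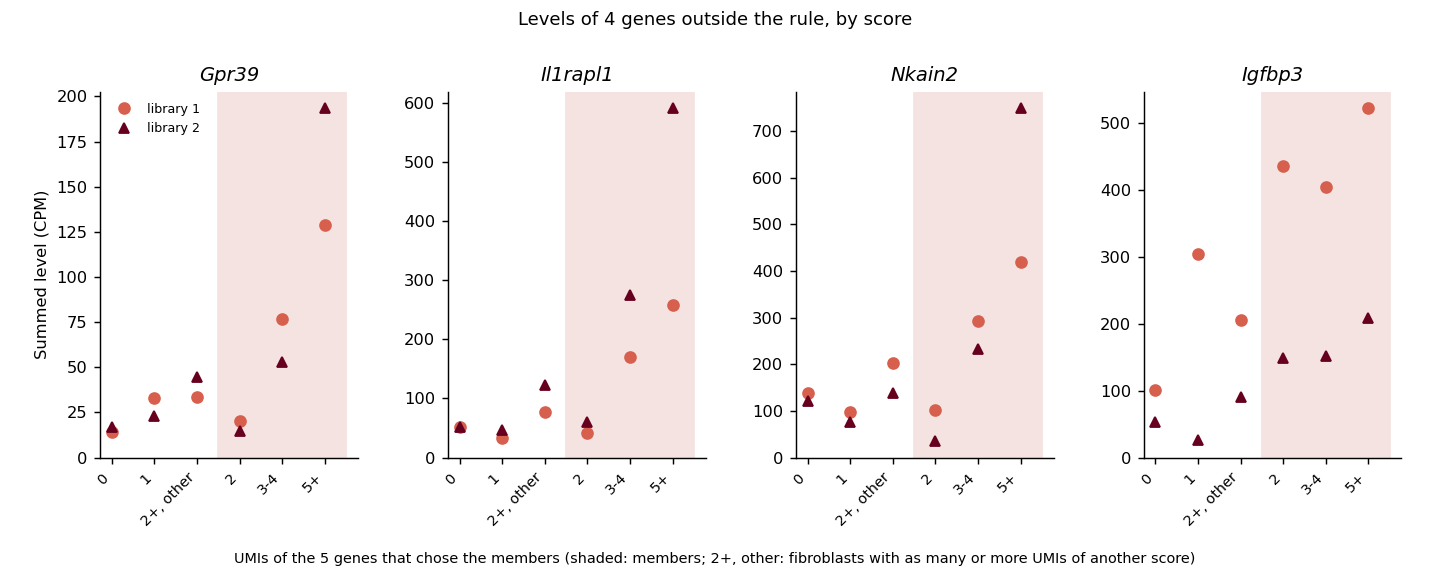
Summed level (y axes, CPM) of Gpr39, Il1rapl1, Nkain2 and Igfbp3 in fibroblasts grouped by their UMIs of the 5 score genes (x axis), with members shaded, circles for library 1 and triangles for library 2; fibroblasts with a score of 1 that did not exceed another score are left out. Gpr39, Il1rapl1 and Nkain2 are highest in members with a score of 5 or more, and Gpr39 is at 20.4 and 14.9 CPM in members with a score of 2.

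The label was checked against marker lists. All 12 general fibroblast markers were detected in members, with summed levels of 16070 and 15730 CPM, against 18460 and 18900 CPM in Pi16/Cd248, 16950 and 20840 CPM in Smoc2/Col15a1 and 10840 and 7364 CPM in the remaining fibroblasts. Members were thus above the remaining fibroblasts and below the other marked classes. Pdgfra, Dcn, Col1a2 and Abca8a are among these 12 markers and were required of every fibroblast. Their detection and their part of the sums were therefore set by the rule and do not check the label. The 8 endocardial markers, among them Npr3 and Vwf, summed to 1461 and 3837 CPM in members, 990 and 2683 CPM in Pi16/Cd248 fibroblasts, 737 and 1383 CPM in Smoc2/Col15a1 fibroblasts and 2143 and 10730 CPM in the remaining fibroblasts, with none at 0 in any class. The 10 endothelial markers summed to 969 and 1722 CPM in members against 1803 and 5496 CPM in the remaining fibroblasts. The 9 pericyte markers summed to 523 and 486 CPM against 2039 and 1796 CPM, again with none at 0. Cardiomyocyte markers summed to 17190 CPM in members of library 1 and 3913 CPM in library 2, near their level in the other classes. Ttn and Ryr2 are among these markers, and the rule held them under 2% of UMIs in every class. Their part of the sums was therefore limited by the rule. A list of 10 valve interstitial markers gave 261 and 225 CPM in members and 277 and 371 CPM in the remaining fibroblasts, with Tnmd at 0 in every class of both libraries and Scx also at 0 in members of library 2.

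Some members lay with other cell types. Clusters whose general fibroblast markers outside the rule were under 75% of the library's level held 20.3% of members in library 1 and 26.3% in library 2, as they did 48.3% and 82.0% of the remaining fibroblasts. The largest, 672 cells of library 2 led by Tmem108, Npr3, Smoc1, Nrg1 and Vwf, is endocardial-like by its markers and held 79 members. Comparisons with all other fibroblasts include every cluster under the 75% limit. The part of endocardial, endothelial and pericyte transcripts in the results below was not tested.

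Against the other fibroblasts, members showed higher levels of Gpr39, Il1rapl1, Nkain2, Prr16, Acss3, Adra1a and Fgf10, among other genes. Of 13113 genes tested, 137 were at least 2-fold higher (1.04%) and 89 at least 2-fold lower (0.679%) at an adjusted p under 0.05. Without the library as a block no gene passed in either direction, although 132 higher and 103 lower genes had an unadjusted p under 0.05. DESeq2 with the block called 54 higher and 12 lower, all of them among these genes. With fibroblast-marker clusters alone there were 149 higher and 92 lower genes, of which 92 and 34 were shared with the first count. After removing cells with more than 2 markers of other types, which left 131 and 161 members, 73 and 54 genes were called, of which 37 and 7 were shared. The fit has 1 residual degree of freedom and borrows its spread from all genes. Nothing in the labels says that the libraries came from separate animals. With the block, p-values rest on a spread between these libraries that is mostly pooled over genes (87.9 borrowed degrees of freedom beside 1 residual). That spread may be technical. The p-value and SE of a gene therefore hardly reflect how its own difference varied between the libraries.

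Gpr39 (chr1:125676995-125873862, plus strand, protein-coding), a receptor that senses zinc, was at 94.3 and 161 CPM in members, against 24.4 and 28.1 CPM in the other fibroblasts. Its log2 difference was 2.40 (SE 0.14, adjusted p = 5.467e-26). Il1rapl1 (chrX:86740870-88115645, minus strand, protein-coding), a synaptic adhesion protein of the interleukin receptor family, was at 193 and 509 CPM against 62.9 and 78.3 CPM (log2 difference 2.38, SE 0.12, adjusted p = 6.583e-30). Both genes were higher in members than in every other class of either library.

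Wisp2, a secreted matricellular protein, had the largest rise among called genes with at least 20 UMIs in members of each library, at 25.7 and 13.04 CPM against 6.59 and 1.96 CPM (log2 difference 2.42, SE 0.36, adjusted p = 2.113e-07). Nkain2 was at 326 and 627 CPM against 159 and 121 CPM (1.86, SE 0.12, adjusted p = 7.388e-23), but its call was lost with DESeq2. Its log2 difference within library 1 was 1.04 and within library 2 was 2.37. Prr16 was at 62.4 and 57.8 CPM against 20.4 and 12.2 CPM (2.07, SE 0.18, adjusted p = 1.824e-16), so it was even between the libraries in members.

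Acss3, a mitochondrial enzyme that activates short-chain fatty acids, was at 136 and 92.7 CPM in members and 55.0 and 19.8 CPM in the other fibroblasts (log2 difference 1.88, SE 0.15). Adra1a, an adrenergic receptor, was at 133 and 70.1 CPM against 47.1 and 20.8 CPM (1.69, SE 0.15). Fgf10, a ligand by which mesenchyme instructs neighbouring tissue, was at 34.3 and 38.4 CPM against 14.2 and 11.2 CPM (1.67, SE 0.21). In each of these genes the members of a library were above every other class of the same library. Ism1, Vwc2, Fam65c, Sntg2 and Sfrp2 rose by 1.68 to 1.86 on the log2 scale, and Csmd3 and Aox3 by 2.13 and 2.27. Of the 15 genes with the largest rise, 11 kept an adjusted p under 0.05 in each alternative that tested them other than the fit without the block. Aox3 and Sfrp2 each lost it in 1 alternative, as did Csmd3 and Nkain2. The difference within a library also varied: Aox3 was at 1.08 in library 1 and 3.56 in library 2.

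**Figure D3:**
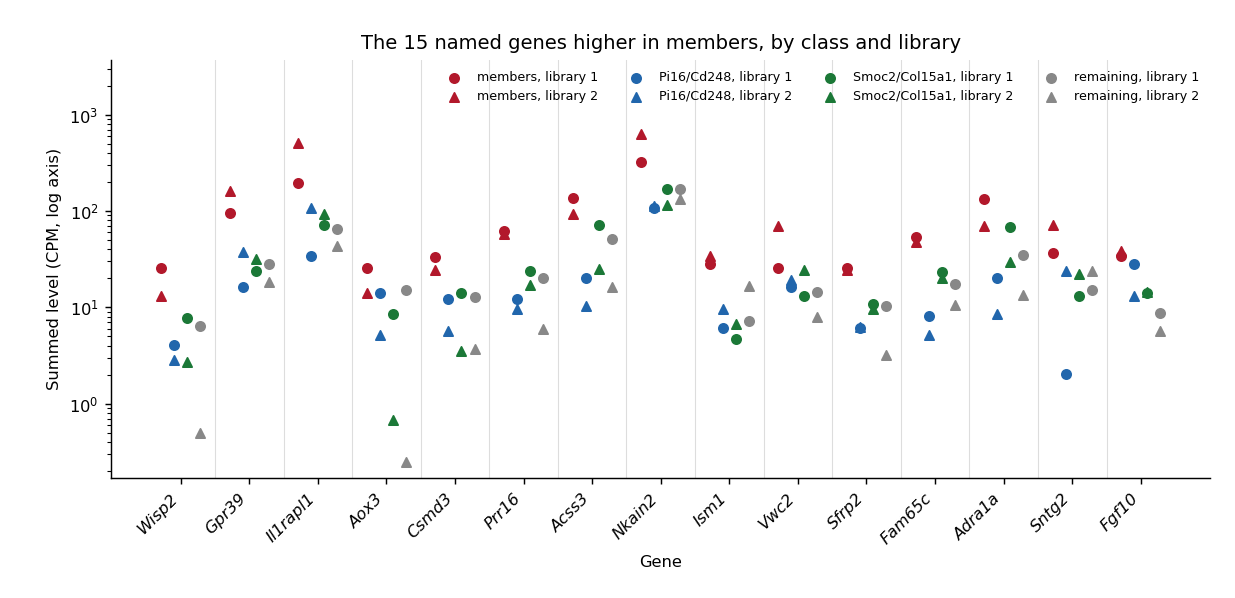
Summed level (y axis, CPM, log axis) of the 15 genes with the largest named rise in members (x axis), in members and in the 3 other classes of fibroblasts, with circles for library 1 and triangles for library 2. Members of a library stand above the other classes of that library, from 13.04 CPM for Wisp2 in library 2 to 627 CPM for Nkain2.

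The genes lower in members were mostly sparse. Csmd1 was at 25.7 and 55.7 CPM in members against 235 and 189 CPM in the other fibroblasts (log2 difference -2.08, SE 0.14, adjusted p = 1.917e-22), but at +0.86 (adjusted p = 0.0851) within fibroblast-marker clusters. Csmd1 was among the leading genes of clusters of 26 and 40 cells that were also led by the potassium channel gene Kcna1 and held 0 and 1 members. Kcna1 was at 0 and 3.17 CPM against 19.8 and 8.51 CPM (-2.15, SE 0.47) and Ptprz1 at 1.22 and 3.17 CPM against 19.8 and 10.6 CPM (-2.18, SE 0.43). Both lost their call when the remaining fibroblasts were left out of the comparison. The 8 Schwann cell markers summed to 528 and 720 CPM in members and 869 and 359 CPM in the remaining fibroblasts, most of it Scn7a. Of these markers 4 were at 0 in members of library 1, among them Sox10, Kcna1 and Gfra3, and 1 in members of library 2. Their part in the lower genes was not tested. Duox1, an oxidase that makes hydrogen peroxide, was at 0 and 1.06 CPM in members against 7.91 and 10.5 CPM and led a cluster of Pi16/Cd248 fibroblasts in library 2. Onecut2, Iqsec3, Chst3, Gfra3 and Ncam2 also fell, from 3.49 to 14.6 CPM in the other fibroblasts to 0 to 3.67 CPM in members. Of the 10 genes with the largest fall, 9 lost the call in at least 1 alternative.

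The ligand gene Vegfc, the protease genes Adamts3 and Adamts2 and the matrix gene Svep1, listed here with VEGF-C signalling, were higher in members. So was Figf, the gene of a related ligand. Of 9 genes of this list tested, 5 rose and none fell at an adjusted p under 0.05, when 3.06% of all genes rose and 2.62% fell. The median log2 difference of the list was 0.41, against -0.01 over all genes. Vegfc, the ligand, was at 179 and 262 CPM in members against 103 and 137 CPM in the other fibroblasts (log2 difference 0.93, SE 0.10, adjusted p = 1.715e-11). Adamts3, the protease that cuts its precursor, was at 72.2 and 83.9 CPM against 47.5 and 25.9 CPM (1.35, SE 0.16, adjusted p = 7.281e-11). Svep1, a large matrix protein also needed for lymphatic vessels, was at 283 and 400 CPM against 151 and 164 CPM (1.18, SE 0.10, adjusted p = 1.246e-16). These 3 genes were higher in members than in any other class of the same library.

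Figf, which encodes the related ligand VEGF-D, was at 46.5 and 75.4 CPM against 27.4 and 46.0 CPM (log2 difference 0.77, SE 0.15, adjusted p = 0.000166). Its call was lost with DESeq2, after removing cells with other markers, and against the mean of the other 3 classes. In the remaining fibroblasts Figf was at 31.2 and 74.4 CPM, near the members' level in library 2. The receptors did not pass the test. Flt4 stood at 14.7 and 19.4 CPM against 13.8 and 23.8 CPM (adjusted p = 0.855), and Kdr at 19.6 and 51.8 CPM against 37.2 and 51.2 CPM (adjusted p = 0.838). Against Pi16/Cd248 fibroblasts 3 of the 9 genes rose, beside 1.24% of all genes. Svep1 rose by 1.70, Adamts3 by 1.80 and Vegfc by 1.25 on the log2 scale. Against Smoc2/Col15a1 fibroblasts only Figf passed (1.41, SE 0.26, adjusted p = 0.0445, lost in 3 of 9 alternatives), while Vegfc had a log2 difference of 0.56 (SE 0.16, adjusted p = 0.228), Adamts3 of 1.16 (SE 0.25, adjusted p = 0.0839) and Svep1 of 0.52 (SE 0.19, adjusted p = 0.426). The list was drawn up knowing that Ccbe1 is in the rule.

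**Figure D4:**
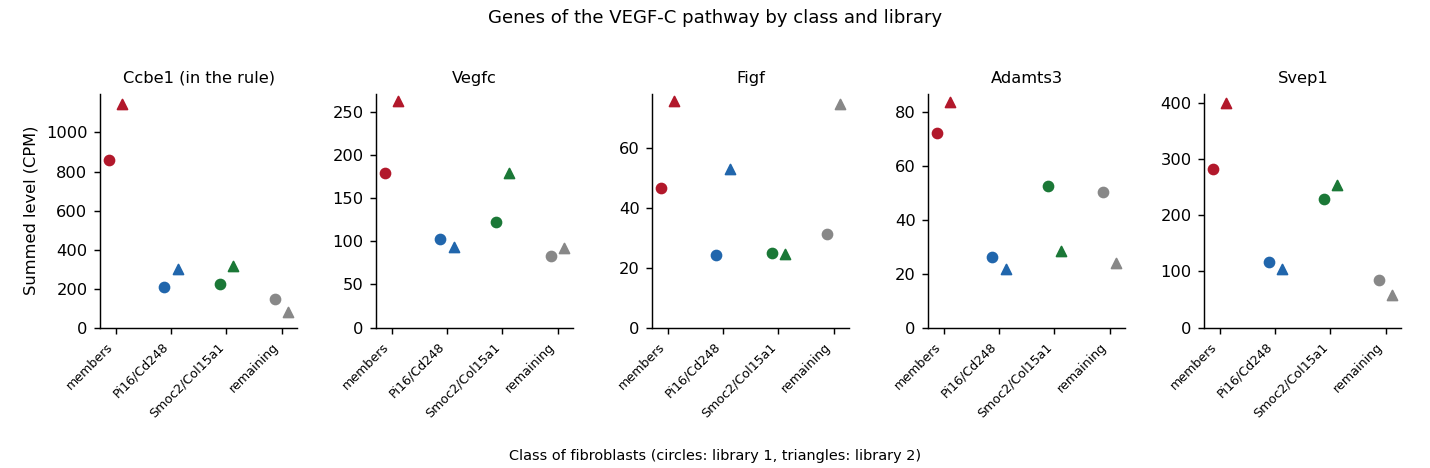
Summed level (y axes, CPM) of Ccbe1, which is in the rule, and of Vegfc, Figf, Adamts3 and Svep1 in members and the 3 other classes (x axes), with circles for library 1 and triangles for library 2. Vegfc is at 179 and 262 CPM in members and Svep1 at 283 and 400 CPM.

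Wnt genes that rose included Sfrp1, Sfrp2, Rspo2 and Wnt5a. Of 41 Wnt genes tested, 11 rose and 1 fell against the other fibroblasts, beside 3.06% and 2.62% of all genes. The median log2 difference of the list was 0.08. Sfrp1, a secreted Wnt binder, was at 103 and 106 CPM against 63.6 and 52.8 CPM (log2 difference 0.94, SE 0.13, adjusted p = 1.805e-08), and its relative Sfrp2 was at 25.7 and 24.7 CPM against 9.89 and 6.89 CPM (1.72, SE 0.27, adjusted p = 5.5e-07). Rspo2, a secreted amplifier of Wnt signals, was at 4.90 and 13.04 CPM against 0.66 and 1.79 CPM (2.89, SE 0.45, adjusted p = 8.315e-07). It was 1 of the genes leading the Thsd7b cluster of library 2. Wnt5a, a ligand of the branch without beta-catenin, was at 41.6 and 28.2 CPM against 19.4 and 14.6 CPM (1.03, SE 0.20, adjusted p = 0.000134), a call lost with DESeq2, after removing cells with other markers and against the mean of the other 3 classes. Against Pi16/Cd248 fibroblasts 1 of 38 Wnt genes rose (Sfrp2) and 2 fell, beside 1.24% and 1.47% of all genes. Those that fell were the ligand Wnt11 and the inhibitor Dkk2, which had 1 UMI in members of each library against 15 and 20 UMIs. Of the alternatives that tested them, other than the missing block, Wnt11 lost its call in 6 of 9 (-1.17, adjusted p = 0.0586, in fibroblast-marker clusters) and Sfrp2 in 4 of 8. Against Smoc2/Col15a1 fibroblasts Rspo2 alone rose, with 4 and 37 UMIs in members against 0 and 1 UMI.

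Of 53 growth factors, receptors and regulators, 12 rose and 5 fell, beside 3.06% and 2.62% of all genes. The median log2 difference of the list was 0.10. Igfbp3 was at 473 and 197 CPM in members against 152 and 74.2 CPM (log2 difference 1.55, SE 0.10, adjusted p = 3.413e-23). Angpt1, the ligand that steadies the endothelium through the TIE2 receptor, was at 546 and 374 CPM against 333 and 131 CPM (1.18, SE 0.10, adjusted p = 3.468e-16). Of the axon guidance genes, 8 of 47 rose and 4 fell, beside the same shares of all genes. Slit3, a secreted repellent of cell migration, was at 1149 and 1393 CPM against 640 and 557 CPM (1.14, SE 0.09, adjusted p = 2.418e-18), and the ephrin receptor Epha3 was at 39.2 and 35.2 CPM against 18.1 and 9.53 CPM (1.66, SE 0.21). In all 4 genes both libraries of members were above the other fibroblasts of the same library. Against Pi16/Cd248 fibroblasts 5 of 51 growth factor genes rose and 1 fell, beside 1.24% and 1.47% of all genes. Against Smoc2/Col15a1 fibroblasts 4 of 51 rose and 0 fell, beside 0.56% and 0.0741%. Of 44 axon guidance genes, 3 rose and 3 fell against Pi16/Cd248 fibroblasts, and 3 rose and 0 fell against Smoc2/Col15a1 fibroblasts.

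Of 68 transcription factors tested, 14 rose and 1 fell, beside 3.06% and 2.62% of all genes, and 53 were not called. Of those that rose, 1 did so by at least 2-fold. Osr1, a zinc finger factor of connective tissue progenitors, was at 37.9 and 30.3 CPM against 20.8 and 10.6 CPM (log2 difference 1.33, SE 0.21, adjusted p = 1.773e-06), a call lost with DESeq2 and after removing cells with other markers. Foxp2 was at 777 and 992 CPM against 518 and 567 CPM (0.74, SE 0.09, adjusted p = 1.607e-10, lost against the mean of the other 3 classes), and Peg3, an imprinted gene, at 284 and 208 CPM against 155 and 140 CPM (0.73, SE 0.10). Against Pi16/Cd248 fibroblasts 2 of 65 transcription factors rose and 2 fell, beside 1.24% and 1.47% of all genes. Against Smoc2/Col15a1 fibroblasts 2 of 65 rose and 0 fell, beside 0.56% and 0.0741%.

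Matrix genes moved both ways, where 3.06% of all genes rose and 2.62% fell. Of 25 elastic fibre genes other than Fbn2, 6 rose and 6 fell. Adamtsl1, a secreted matrix protein, was at 58.8 and 121 CPM against 32.0 and 32.9 CPM (log2 difference 1.64, SE 0.15, adjusted p = 6.557e-15), and the elastic fibre protein fibulin-1, from Fbln1, at 387 and 331 CPM against 216 and 155 CPM (1.02, SE 0.10, adjusted p = 1.638e-14). Adamtsl3 (-0.78, SE 0.10, lost against the mean of the other 3 classes) and the microfibril gene Mfap5 (-0.78, SE 0.10) fell. Of 24 proteoglycan genes 7 rose and 1 fell, Gpc3 (glypican-3) from 53.1 and 57.4 CPM to 111 and 122 CPM (1.12, SE 0.13). Of 30 matrix enzyme genes 7 rose and 1 fell, and of 9 fibrillar collagens 3 rose and 1 fell. Against Pi16/Cd248 fibroblasts, 2 of 23 proteoglycan genes rose and 1 fell, and 2 of 28 matrix enzyme genes rose and 2 fell. The shares of all genes there were 1.24% and 1.47%. Against Smoc2/Col15a1 fibroblasts no gene of these 2 lists was called. No fibrillar collagen was called in either comparison. Col3a1 was 0.38 higher on the log2 scale (SE 0.08) against the other fibroblasts, but 0.05 higher (adjusted p = 0.887) when the remaining fibroblasts were left out.

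Of 16 genes typical of valve and tendon, 8 rose and 1 fell against the other fibroblasts, beside 3.06% and 2.62% of all genes. The median log2 difference of the list was 0.71. Against Pi16/Cd248 fibroblasts 0 of 14 rose and 1 fell, beside 1.24% and 1.47% of all genes. Against Smoc2/Col15a1 fibroblasts 1 of 14 rose and 0 fell, beside 0.56% and 0.0741%. The calls of Tnc, Dkk3, Fmod and Wif1 against the other fibroblasts were each lost in 2 to 6 alternatives. In fibroblast-marker clusters the log2 differences were 0.79 for Tnc (adjusted p = 0.257), 0.51 for Dkk3 (adjusted p = 0.0942) and 1.19 for Fmod (adjusted p = 0.114). Col11a1 was tested in only 5 alternatives apart from the missing block and kept its call in these. It had few UMIs, with 4 and 26 in members, or 4.90 and 9.16 CPM against 1.65 and 1.11 CPM in the other fibroblasts (2.70, SE 0.49). Tnc was at 42.8 and 31.4 CPM against 9.89 and 17.0 CPM (1.26, SE 0.21), but at -0.81 after removing cells with other markers. Of 13 genes of activated fibroblasts 4 rose and 1 fell against the other fibroblasts, beside 3.06% and 2.62% of all genes. Against Pi16/Cd248 fibroblasts 1 of 14 rose and 0 fell, and against Smoc2/Col15a1 fibroblasts 0 of 14 rose and 0 fell. Nox4, an oxidase, was at 169 and 139 CPM against 97.2 and 60.01 CPM in the other fibroblasts (1.09, SE 0.11, adjusted p = 1.021e-12). This call was lost after removing cells with other markers. Acta2, the actin of smooth muscle and myofibroblasts, was lower (-1.48, SE 0.21), chiefly in library 1, where it was at 36.7 CPM against 201 CPM, and at 0.01 within fibroblast-marker clusters. Postn rose by 0.35 (SE 0.11), but fell by 1.23 (adjusted p = 0.0001) after removing cells with other markers. The 7 smooth muscle markers summed to 187 and 158 CPM in members and 643 and 141 CPM in the remaining fibroblasts, with none at 0, and their part in the Acta2 result was not tested.

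The remaining lists held the following calls, where 3.06% of all genes rose and 2.62% fell. Of 22 complement and immune stroma genes 5 rose and 3 fell, of 26 matricellular genes 5 rose and 4 fell, of 20 other collagens 3 rose and 1 fell, and of 27 laminin and integrin genes 2 rose and 3 fell. Of 43 TGF-beta and BMP genes 3 rose and 1 fell, near the share over all genes. Of 41 potassium channel genes other than Kcnb2 5 rose and 6 fell, and Kcnn3 was among those that rose (0.60, SE 0.13), a call lost in 4 of 11 alternatives, with a log2 difference of 0.21 (adjusted p = 0.528) against the pooled Pi16/Cd248 and Smoc2/Col15a1 fibroblasts. Thsd7a, the close relative of Thsd7b, was at 809 and 969 CPM against 467 and 511 CPM (0.90, SE 0.09, adjusted p = 6.139e-14), and it was the only 1 of 8 Thsd and Vwa genes tested that passed. Of 13 cell cycle genes none rose and Kif11 fell, a call lost in 4 of 9 alternatives.

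**Figure D5:**
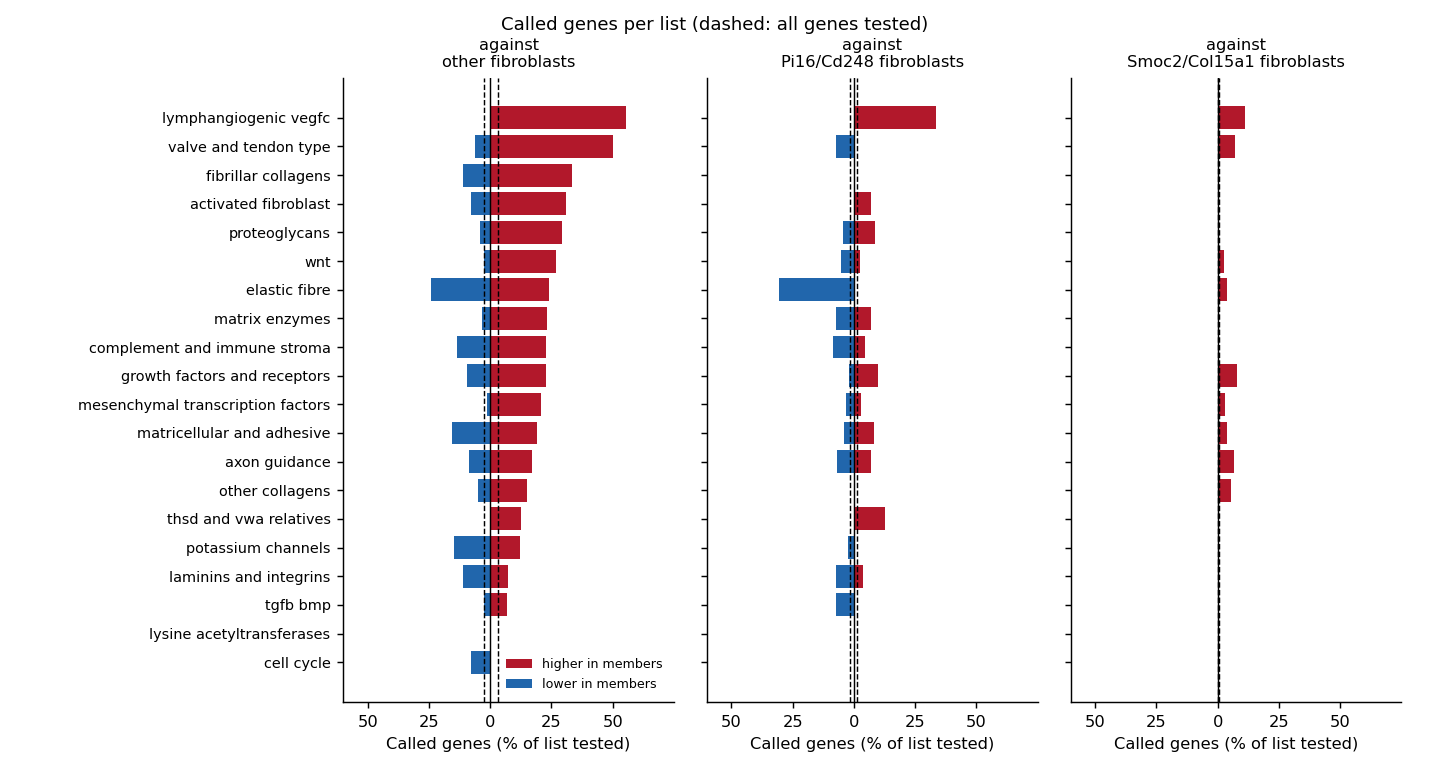
Share of each gene list (rows) called higher (right, red) or lower (left, blue) in members at an adjusted p under 0.05, in % of the genes of the list tested (x axes), against the other fibroblasts, the Pi16/Cd248 and the Smoc2/Col15a1 fibroblasts; dashed lines mark the share over all genes tested. Against the other fibroblasts, 5 of 9 genes of the VEGF-C list and 11 of 41 Wnt genes were higher, against 3.06% of all genes.

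Members held more Igfbp3, Gria1 and Adra1a and less Papln, Cmah and Uap1 than Pi16/Cd248 fibroblasts. Of 12138 genes tested, 111 were at least 2-fold higher in members (0.914%) and 127 at least 2-fold lower (1.05%). Igfbp3 was at 473 and 197 CPM in members against 52.4 and 24.4 CPM (log2 difference 3.11, SE 0.24, adjusted p = 0.00021). Gria1, a subunit of glutamate receptors, was at 26.9 and 69.4 CPM against 4.03 and 5.12 CPM (3.54, SE 0.41, adjusted p = 0.00127), and Adra1a at 133 and 70.1 CPM against 20.2 and 8.53 CPM (2.93, SE 0.23, adjusted p = 0.00021). Chl1, Grm8, Fam65c, Acss3 and Frem1 rose by 2.97 to 3.35 on the log2 scale, and Chl1 lost its call in 3 alternatives, 1 of them fibroblast-marker clusters (2.88, adjusted p = 0.0518). Itga8, an integrin subunit of mesenchyme, was at 80.8 and 145 CPM against 26.2 and 15.9 CPM (2.69, SE 0.40, adjusted p = 0.00546). Not all of these genes were highest in members. Itga8 was at 101 and 98.3 CPM in Smoc2/Col15a1 and 97.7 and 52.1 CPM in the remaining fibroblasts, above members in library 1. Grm8 was at 55.8 and 34.1 CPM in Smoc2/Col15a1 fibroblasts against 44.1 and 31.4 CPM in members. Chl1 was at 79.3 and 34.2 CPM in the remaining fibroblasts against 28.2 and 15.9 CPM in members.

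The genes lower in members included matrix and surface genes of the Pi16/Cd248 state. Papln was at 2.45 and 5.64 CPM in members against 66.6 and 65.4 CPM (log2 difference -3.72, SE 0.32, adjusted p = 0.000232), and Cmah at 4.90 and 24.0 CPM against 68.6 and 318 CPM (-3.68, SE 0.20, adjusted p = 2.541e-05). Uap1, which makes the sugar precursor of hyaluronan, was at 103 and 89.1 CPM against 597 and 506 CPM (-2.49, SE 0.17, adjusted p = 0.000101). Pla1a, Ret, Efhd1, Nov and Thy1 fell by 2.64 to 3.20, and these 8 genes kept their calls in the alternatives other than the missing block. Of 26 elastic fibre genes none rose and 8 fell, beside 1.24% and 1.47% of all genes, among them Mfap5 from 627 and 901 CPM to 159 and 210 CPM (-2.02, SE 0.17), Efemp1 (-2.40, SE 0.21) and Emilin2 (-2.20, SE 0.29). The surface proteins Ly6a (-2.37, SE 0.24) and Cd34 (-1.39, SE 0.15) also fell. The guidance factor Sema3c was at 82.0 and 97.3 CPM against 315 and 620 CPM (-2.36, SE 0.19, adjusted p = 0.00021).

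Fewer genes separated members from Smoc2/Col15a1 fibroblasts: 64 were at least 2-fold higher (0.527%) and 8 at least 2-fold lower (0.0659%). At an adjusted p under 0.05 with no fold limit, 0.56% of all genes were higher and 0.0741% lower. Gpr39 was at 94.3 and 161 CPM against 24.0 and 31.9 CPM (log2 difference 2.21, SE 0.26, adjusted p = 0.017), and Il1rapl1 at 193 and 509 CPM against 71.3 and 93.5 CPM (2.07, SE 0.35, adjusted p = 0.0297). Ism1, a secreted protein, was at 28.2 and 34.2 CPM against 4.65 and 6.71 CPM (2.43, SE 0.29, adjusted p = 0.017). Hs3st4, which modifies heparan sulfate, and Kif26b rose by 2.34 and 2.05. Csmd3 rose by 2.14, a call lost in 2 alternatives. Epha7, a guidance receptor, was at 160 and 406 CPM against 73.7 and 106 CPM (1.60, SE 0.25, adjusted p = 0.0238). In the remaining fibroblasts Epha7 was at 185 and 609 CPM, above members in both libraries. Kif26b was at 35.2 and 72.9 CPM there, against 35.5 and 44.75 CPM in members. Gpr39, Il1rapl1, Ism1, Hs3st4 and Csmd3 were lower in the remaining fibroblasts than in members of the same library.

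Endothelial and endocardial genes moved with this comparison. Npr3 was at 148 and 508 CPM in members against 56.6 and 123 CPM (log2 difference 1.80, SE 0.26, adjusted p = 0.0188), Bmx, an endothelial kinase, at 34.3 and 101 CPM against 9.30 and 19.5 CPM (2.33, SE 0.36, adjusted p = 0.0238, lost with DESeq2 and with a score of at least 3), and Col23a1 at 37.9 and 85.3 CPM against 5.43 and 23.8 CPM (2.08, SE 0.29, adjusted p = 0.017). The 8 endocardial markers together stood at 1461 and 3837 CPM against 737 and 1383 CPM. In library 1 the 5 atrial cardiomyocyte markers summed to 1908 CPM in members and 326 CPM in Smoc2/Col15a1 fibroblasts, with none at 0, and the 5 erythroid markers to 825 and 3137 CPM. The part of these transcripts in the comparison was not tested. With fibroblast-marker clusters alone the log2 difference of Npr3 was 1.14 and that of Col23a1 0.47, where Col23a1 lost its call. Npr3 lost its call with a score of at least 3 (1.28, adjusted p = 0.0779). The lower genes included Tll2, Ret, Syn2, Pla1a, A4galt and Csmd1, which fell by 1.09 to 2.29, and of these 6 only Ret kept its call in the alternatives other than the missing block. Csmd1 reversed to 1.01 within fibroblast-marker clusters.

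The genes of the floxed acetyltransferase alleles did not pass the test. Ep300 was at 154 CPM in members of library 1 and 177 CPM in library 2, against 124 and 161 CPM in the other fibroblasts (log2 difference 0.24, SE 0.11, adjusted p = 0.259). Crebbp was at 433 and 610 CPM against 459 and 560 CPM (0.07, SE 0.09, adjusted p = 0.84). The feature named GFP had 6 UMIs in members of library 1 and 7 in library 2, or 7.34 and 2.47 CPM, against 7.25 and 2.38 CPM in the other fibroblasts. With no control library these levels do not check the labels. Of 17 lysine acetyltransferase genes none passed at an adjusted p under 0.05 in any of the 3 comparisons with edgeR.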

How the data were processed

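Single-cell 3' libraries of 2 right ventricle samples were read from the authors' deposited matrix of whole-number UMI counts (27999 features, 22183 barcodes). Per the file headers it was made with Cell Ranger 6.0.0, and the submitters' processing notes also name fastp, Trimmomatic, Seurat and edgeR, with no role given. The build per the labels is GRCm38/mm10. The sources used here do not say if intronic or antisense reads entered the counts, so overlapping genes and near-identical copies are uncertain. Barcode suffixes were matched to the sample titles.

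UMIs were summed per class and library. Members and the 4278 other fibroblasts gave 4 sums, and the 4 classes gave 8. Both were fitted with edgeR 4.0.16 (TMM, filterByExpr, quasi-likelihood test) with the library as a block, since classes of a library come from 1 suspension (correlations of their deviations 0.562 to 0.717). P-values were Benjamini-Hochberg adjusted over all genes tested, with a threshold of 0.05. A standard error (SE) is the log2 difference divided by the root of F. The 23 rule genes stayed in library sizes and were not tested. Alternatives included DESeq2 1.42.0, other depth and score minimums, and removal of doublet-marked cells (simulated from pairs of barcodes) or of cells with more than 2 of 54 markers of other types. On simulated counts for 12871 genes of members against other fibroblasts, 60.2% of 2-fold and 96.8% of 4-fold changes were recovered, and 3.82% of calls were false. These counts were drawn with the same spread for every gene and no difference between libraries other than depth. The rates hold for that setting and do not measure false calls in these data. Clusters were made per library (2000 variable genes, 30 components, 15 neighbours, Leiden resolution 1).

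Named genes were the called genes with the largest log2 differences (15 higher and 10 lower against other fibroblasts, 8 in each direction in the other comparisons), with at least 20 UMIs in the higher class of each library and 1 direction in both, plus up to 4 called genes of each list and up to 2 others for their role. Some genes that this rule names are not reported here. Members and lists were chosen with earlier results of these data known.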

Additional observations from a re-analysis of the deposited data

How the results depend on the processing

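The mean share of members among fibroblasts (18.8%) was 13.8% with cells thinned to 1000 UMIs, 19.4% and 19.9% with at least 1000 and 2000 UMIs, 16.2% with a score of at least 3 and 18.2% without doublet-marked cells, and it ranged from 18.6% to 19.1% without 1 library. Without the replicate block, 0 genes were called in each comparison and direction. Unadjusted p-values under 0.05 then numbered 132 higher and 103 lower against other fibroblasts, 298 and 340 against Pi16/Cd248, and 130 and 85 against Smoc2/Col15a1 fibroblasts. Against other fibroblasts, 137 genes were higher, with 73 after removing cells with other markers, 87 against the mean of the other classes and 54 with DESeq2. The 89 lower genes became 58 with at least 2000 UMIs, and 54, 14 and 12 under the same 3 settings. Against Pi16/Cd248 fibroblasts, 111 higher genes became 224 after removing cells with other markers, 297 in fibroblast-marker clusters and 251 with no low-count filter, and the 127 lower genes became 239 and 200 in the last 2. Against Smoc2/Col15a1 fibroblasts, 64 higher genes became 143 without doublet-marked cells, 125 in fibroblast-marker clusters and 231 with no filter. The 8 lower genes became 5 with at least 2000 UMIs, 5 with a score of at least 3, 13 without doublet-marked cells, 13 after removing cells with other markers, 31 in fibroblast-marker clusters and 47 with no filter. The causes were not tested.

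Reversed log2 differences in fibroblast-marker clusters were 0.86 for Csmd1 (1.01 against Smoc2/Col15a1 fibroblasts), 0.0052 for Acta2 and -0.40 for Postn. After removing cells with other markers they were -0.81 for Tnc, 0.58 for Acta2, -1.23 for Postn, -0.28 for C3, -0.0114 for Crebbp and 0.65 for Csmd1 against Smoc2/Col15a1 fibroblasts. With Pi16/Cd248 and Smoc2/Col15a1 fibroblasts pooled as the comparator they were 0.00046 for Col25a1 and 0.0509 for Kcnj8. Itga8 against other fibroblasts (0.72) was at -0.11 without library 2 and 1.04 without library 1. GFP, with 13 UMIs or fewer in members, was at -0.12, -0.33 and -0.0584 with at least 2000 UMIs, a score of at least 3 and no replicate block, and against Pi16/Cd248 fibroblasts at -0.19, -0.29 and -0.00147 with at least 2000 UMIs, a score of at least 3 and library size alone. Fibroblast-marker clusters and the pooled comparator were chosen after seeing the data. With 2 libraries and 817000 UMIs of members in library 1, genes under about 10 CPM rest on few molecules.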
